A study of Mus musculus with 4 samples.

Results

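The 36 genes described here carry glucose into the cell, break it down to pyruvate and lactate, pass pyruvate into mitochondria, or control the hypoxia-inducible factors (HIFs). They were chosen by name, with earlier results of these data known: each row of the deposited count table whose NCBI gene identifier maps to 1 of 36 mouse symbols was taken, and all 36 were found among 27179 identifiers. The 36 fall into 23 genes from glucose uptake to lactate export, 5 of pyruvate entry and 8 of HIF control. The libraries came from group 2 innate lymphoid cells (ILC2s), lymphocytes without antigen receptors that make type 2 cytokines, that had been sorted out of colon tissue of the strain C57BL/6J. Of the 4 mice, 2 were fed the diet labelled Control and 2 the diet labelled High-fiber, and each library is 1 mouse. No other genotype or agent is named. The labels give no sort gate, cell number, kind of fiber, time on the diet or age, so the groups stand for these diets only in that form. The design compares the diets, and the form of each enzyme counted on the control diet is described beside it.

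Glycolysis splits glucose into pyruvate in the cytosol. Lactate dehydrogenase turns pyruvate into lactate, which leaves through monocarboxylate transporters, while the mitochondrial pyruvate carrier and pyruvate dehydrogenase send it on to the tricarboxylic acid cycle. With oxygen present, the prolyl hydroxylases encoded by Egln1, Egln2 and Egln3 mark HIF alpha subunits for destruction through the VHL ubiquitin ligase, and the asparaginyl hydroxylase Hif1an blunts their activity. When oxygen is scarce the alpha subunit persists, pairs with ARNT, binds DNA at sites with the core RCGTG, and raises transcription of many glycolytic genes. Much of this control acts on the protein, which RNA counts do not show.

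Upstream sequence is shown for the 3 genes on which the results turn most: Hif1a and Egln3, whose library-scaled levels on high fiber all exceeded those on control, and Ldha, the lactate dehydrogenase gene that leads its step. Each run is the 250 bases before a RefSeq start in GRCm38.p6, 5′ to 3′ on the gene's strand, in lower case. Capitals mark ACGTG, a form of the HIF core, on either strand, so that CACGT is its reverse complement and the palindrome CACGTG, which holds both, counts once on each strand.
Hif1a, chr12:73907617-73907866, plus strand: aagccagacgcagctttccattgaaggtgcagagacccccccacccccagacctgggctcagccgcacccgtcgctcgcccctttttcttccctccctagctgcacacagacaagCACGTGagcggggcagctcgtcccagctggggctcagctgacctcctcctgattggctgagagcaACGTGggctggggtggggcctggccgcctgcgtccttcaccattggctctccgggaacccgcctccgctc
Egln3, chr12:54203875-54204124, minus strand: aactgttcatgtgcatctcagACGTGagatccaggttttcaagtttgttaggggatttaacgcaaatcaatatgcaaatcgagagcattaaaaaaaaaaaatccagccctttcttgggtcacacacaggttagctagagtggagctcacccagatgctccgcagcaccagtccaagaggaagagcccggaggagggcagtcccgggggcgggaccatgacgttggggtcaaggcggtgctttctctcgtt
Ldha, chr7:46845554-46845803, plus strand: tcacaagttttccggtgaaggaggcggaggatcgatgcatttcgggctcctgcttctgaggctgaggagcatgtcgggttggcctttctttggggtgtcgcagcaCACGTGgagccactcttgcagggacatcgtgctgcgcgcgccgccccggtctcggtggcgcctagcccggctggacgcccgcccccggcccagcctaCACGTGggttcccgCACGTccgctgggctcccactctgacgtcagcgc
The Hif1a window held 3 matches, the Egln3 window 1 and the Ldha window shown 5. Ldha has another window, chr7:46846832-46847081, with 0 matches to ACGTG, and the window with the most matches was the one shown. The windows shown for Hif1a and Ldha lie within the gene records, whose longest models start farther upstream. They fell in introns of those models with no annotated exon across them. A RefSeq promoter was found for 34 of the 36 genes, in 49 windows, and not for Slc2a3 or Epas1. ACGTG stood in at least 1 window of 17 of the 34 genes, against 4998 of 27025 mouse genes with a promoter (18.5%). The other form of the core, GCGTG, stood in 21 of the 34 (61.8%), against 8338 of 27025 (30.9%), and CACGTG in 5 of 34 (14.7%), against 1854 of 27025 (6.86%). The background is every mouse gene with a promoter, expressed or not. It was not matched for CG content, though each of these words holds a CG, or for the number of windows per gene. These are letter matches: they name no bound factor, and a window without a match says only that the letters are missing there.

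Totals ran from 20253987 to 30406730 counts per library, and 11841 genes entered the edgeR test, with 35 of the 36 genes of interest among them. Eno2, the neuronal enolase, was the member not tested, with 0 and 1 counts on control and 41 and 0 on high fiber. Values below list control libraries 1 and 2 and then the high-fiber pair 1 and 2, and are in CPM, a gene's counts relative to the TMM-scaled total of its library. A zero allows up to 3 counts, or 0.0993 to 0.147 CPM, a floor that covers counting error only because PCR copies are not separate molecules. High-fiber library 2 stood apart: it lay at 116 on a first principal component that held 45.8% of the variance, with the others between -59.3 and -10.0. All 10 ILC2 marker genes were tested, and their sum was 11331, 9514, 13495 and 11311 CPM. The cytokine gene Il5 was the largest part of that sum in every library, at 3043, 2559, 5889 and 3799 CPM. Gata3 was at 1615.5, 1026, 1296 and 766 CPM, and 8 of the list had positive and 2 negative log2 fold changes. Marker sums for B and plasma cells were 156, 39.1, 342 and 1226 CPM, with 5 of 8 genes tested and Ms4a1, Cd79a and Mzb1 at 1.18 CPM or less in every library. Sums for macrophages and dendritic cells were 143, 295, 329 and 368 CPM, with 9 of 10 tested and Itgax at 0. T cell markers summed to 7.34 to 26.4 CPM, with Cd8a, Cd8b1 and Cd5 at 0 throughout. Trac was at 14.9, 9.67, 4.16 and 10.6 CPM, Cd3e at 5.79, 13.2, 1.21 and 5.30 CPM, and Cd3d at 4.27, 3.48, 1.42 and 4.51 CPM. Foxp3 reached 4.22 CPM in high-fiber library 2. In the epithelial list 5 of 7 markers were at 0 throughout, with Epcam at 25.1 to 36.9 CPM. Red blood cell markers summed to at most 0.667 CPM, and cell cycle genes to 207 to 279 CPM. In bulk RNA, fewer cells of a type and less RNA per cell cannot be told apart.

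No member passed an adjusted p of 0.05 in edgeR's quasi-likelihood test, whose calls made up 0.0338% of all genes tested (4 of 11841), and the smallest adjusted p among the members was 0.447. At an unadjusted p under 0.05, edgeR gave 2 members higher on high fiber, Hif1a and Egln3, where 4.70% of all genes did so, and 1 member lower, Hk3, where 4.10% did. DESeq2 called 1 higher (Hif1a) and 1 lower (Hk3) at its adjusted p of 0.05, against 1.23% and 0.613% of all genes with an adjusted p. Of the 35 tested members, 21 had a positive log2 fold change (high-fiber over control) and 14 a negative one, against 48.8% positive over all genes, and 19 were positive without scaling factors. Without high-fiber library 2, 20 of the 35 were positive, against 47.9% of all genes tested then. Their median log2 fold change was 0.05, and that of all genes tested was -0.02. In 6 members both high-fiber libraries exceeded both control libraries (Aldoa, Tpi1, Pgk1, Egln3, Hif1a and Epas1), where 18.5% of all genes did so. In 5 members both were lower (Slc2a3, Hk3, Pfkm, Pgam1 and Pdk1), where 19.6% of all genes did so. Both shares, 6 and 5 of 35, are near these backgrounds.

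**Figure D1:**
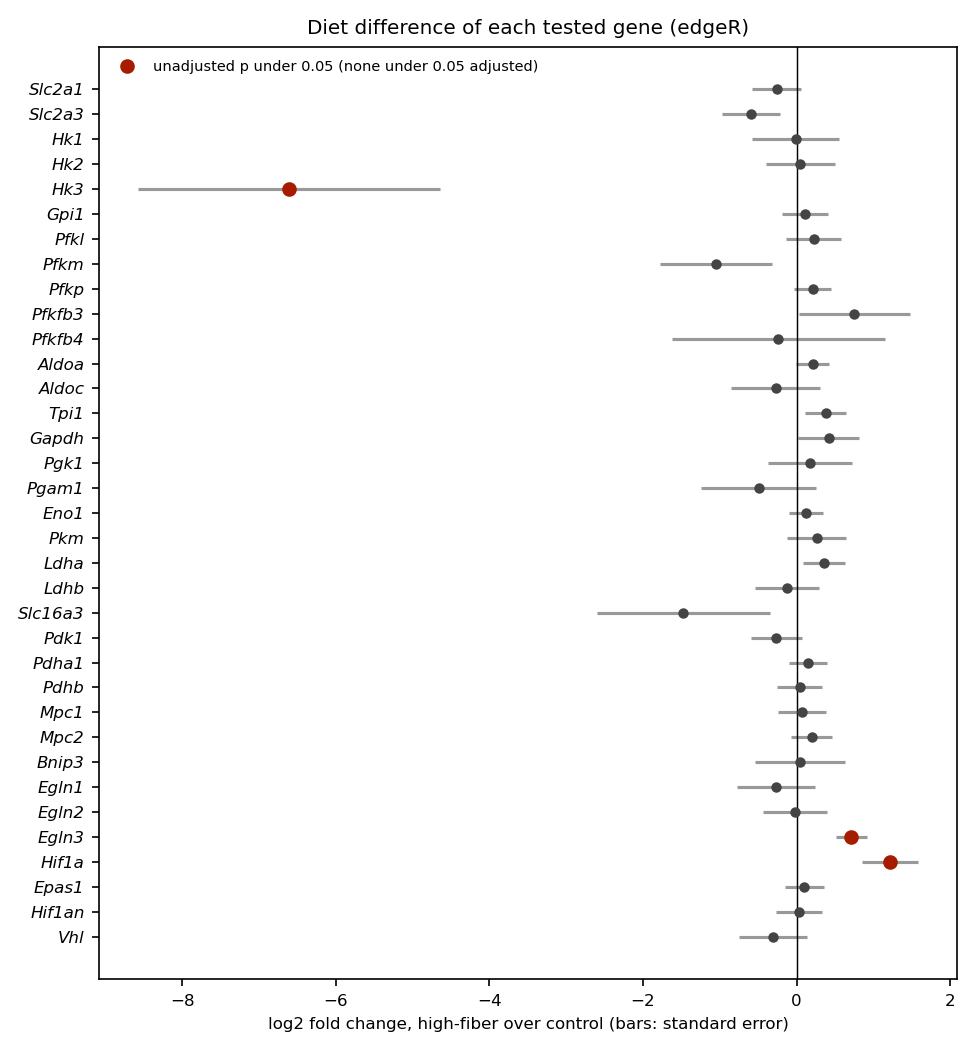
The log2 fold change of each tested member, high-fiber over control, with its standard error from edgeR, in pathway order from top to bottom. Red points mark Hk3, Egln3 and Hif1a, the members at an unadjusted p under 0.05, and most other bars cross 0.

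Levels of different genes are compared here per unit length, as RPKM (CPM per kilobase of exon, over the union of GENCODE exons). On the control diet Aldoa and Ldha were the highest of the 36, at 551 ± 22.2 and 535 ± 108 RPKM (SD, n = 2), ranks 74 and 77 of 11501 genes with a length. Pkm followed at 116 ± 27.2 RPKM, then Egln3 at 68.0 ± 0.335 RPKM, Pdha1 at 59.5 RPKM, Eno1 at 56.6 RPKM and Hif1a at 46.3 ± 12.3 RPKM. Aldoa and Ldha did not differ beyond their spread, and neither did Pdha1 and Eno1, or Eno1 and Hif1a. Tpi1 stood at 31.1 RPKM, while Gapdh stood at 7.31 RPKM, Pgk1 at 4.0 RPKM and Pgam1 at 1.70 RPKM. These 4 enzymes act in consecutive steps. The order of the genes depends on the length used. With the longest RefSeq-matched transcript as length, Aldoa and Ldha still led on the control diet at 1036 and 976 RPKM, and Pkm followed at 239 RPKM. Eno1 at 150, Pdhb at 114, Mpc2 at 111 and Pdha1 at 78.1 RPKM then all stood above Egln3 at 68.0 and Hif1a at 57.8 RPKM.

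**Figure D2:**
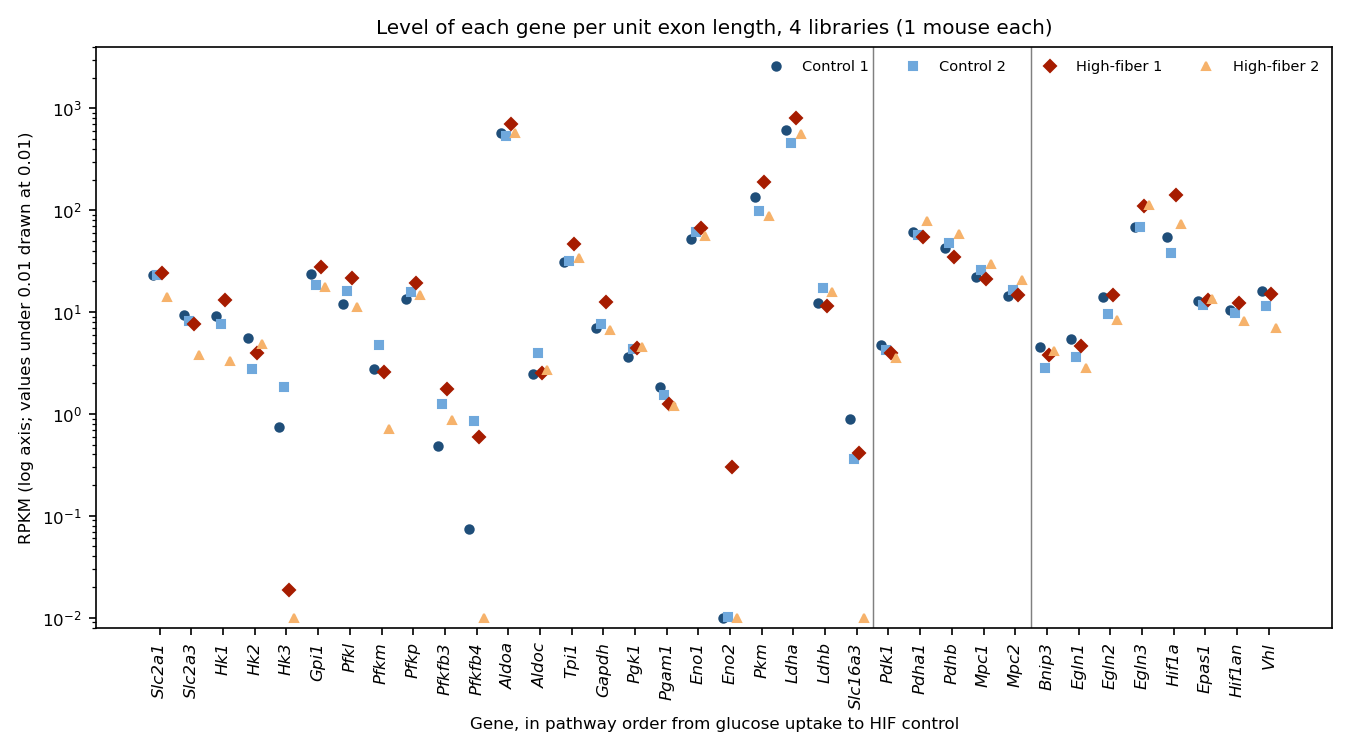
Level of each gene in RPKM on a log axis in each of the 4 libraries, ordered from glucose uptake to HIF control, with vertical lines between the 3 blocks. Aldoa and Ldha sit highest in every library, and Hk3, Pfkfb4, Slc16a3 and Eno2 reach the bottom of the plot in at least 1 library.

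Gapdh, Pgk1 and Pgam1 share much of their transcript sequence with processed copies and other genes. Of the 50-base words in the longest RefSeq-matched transcript, 82.5% for Gapdh also stood in annotated transcripts of genes elsewhere, 222 genes in all. The shares were 72.2% for Eno1, 68.0% for Pgk1, 48.9% for Bnip3, 41.5% for Pgam1, 30.5% for Pkm and 30.3% for Pdhb. They were 27.0% for Ldhb, 26.4% for Mpc1 and 19.6% for Gpi1, against 13.5% for Aldoa, 16.6% for Ldha, 7.51% for Tpi1 and 0% for Hif1a and Egln3. With words of 100 bases they were 78.0% for Gapdh, 67.0% for Pgk1, 59.0% for Eno1, 39.7% for Pgam1 and 22.1% for Mpc1. Bnip3 was then at 18.8%, Pdhb at 10.5%, Ldhb at 8.8%, Pkm at 6.82% and Gpi1 at 4.92%. How reads that fit several places were counted is unknown from the labels. The levels of Gapdh, Eno1, Pgk1, Bnip3, Pgam1, Pkm, Pdhb, Ldhb, Mpc1 and Gpi1 are uncertain, and the part of shared sequence in them was not tested.

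**Figure D3:**
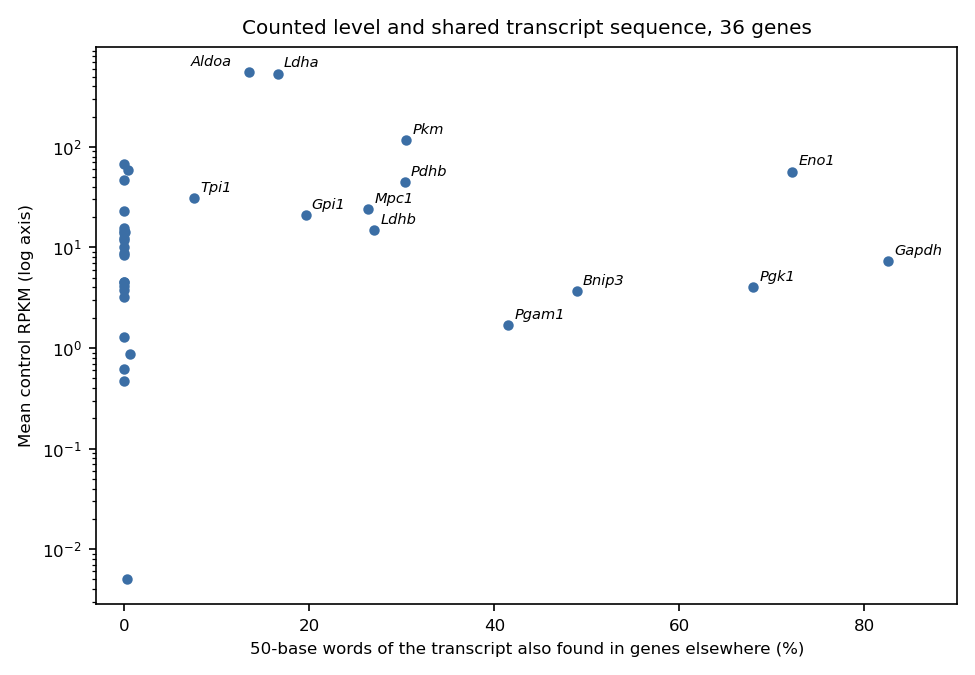
Share of 50-base words in each transcript that also occur in genes elsewhere (x axis, percent) against the mean control level in RPKM (y axis, log scale), 1 point per gene. Gapdh, Pgk1 and Pgam1 lie to the right at low levels, Eno1 lies to the right at a high level, and Aldoa and Ldha lie to the left at the top.

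Glucose enters through facilitative transporters, of which Slc2a1 (GLUT1) serves most cells and Slc2a3 (GLUT3) has a high affinity for glucose. Slc2a1 made up 72.5% ± 2.26 (SD, n = 2) of their summed RPKM on the control diet. With the longest RefSeq-matched transcript as length that share was 60.7%. Slc2a1 was at 80.3, 81.6, 84.3 and 49.6 CPM, and the low value was high-fiber library 2 alone. Slc2a3 was at 68.2, 59.0, 55.6 and 27.6 CPM, so both high-fiber libraries were below both control libraries, again with library 2 lowest. The log2 fold change of Slc2a3 was -0.59 ± 0.38 (SE), at an adjusted p of 0.742 in edgeR. It was -0.21 without high-fiber library 2 and -1.18 without high-fiber library 1. Among the other transporters, Slc2a8, an intracellular carrier, held 31.3%, 23.0%, 24.9% and 37.5% of the RPKM of 7 transporter genes, while Slc2a2 and Slc2a4 had no count.

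Hexokinases trap glucose as glucose 6-phosphate: Hk1 is the widespread form, Hk2 the form induced in growing and insulin-sensitive cells, and Hk3 a form found mainly in myeloid cells. Hk1 led on the control diet with 60.9% ± 2.26 (SD, n = 2) of the summed RPKM of the 3, and it led in 3 of the 4 libraries. Hk1 was at 78.6, 64.9, 112 and 28.2 CPM, so the high-fiber libraries held both the highest and the lowest value. DESeq2 called Hk1 lower without high-fiber library 1 (adjusted p = 0.0383). Hk2 was at 33.3, 16.4, 23.9 and 29.2 CPM, and its share exceeded that of Hk1 in high-fiber library 2 alone, at 59.7%. With the longest RefSeq-matched transcript as length, Hk1 led in all 4 libraries, at 55.4% in that library.

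Hk3 had 83 and 141 counts in the control libraries and 2 and 0 in the high-fiber libraries, or 2.75, 6.72, 0.0693 and 0 CPM. The groups did not overlap, and the counts pooled by diet, 224 against 2, gave a ratio of 108 with a 95% interval of 29.5 to 895 that covers counting error only. In edgeR its unadjusted p was 0.0160 and its adjusted p 0.456, while DESeq2 gave an adjusted p of 0.00990. The DESeq2 call was lost without control library 1 (adjusted p = 0.128), without control library 2 (0.871) and without high-fiber library 2 (0.0726), and held without high-fiber library 1 (0.0160). The sum of macrophage and dendritic cell markers, given above, was lower in the control libraries, and most of it came from Apoe and Lyz2. In that list 1 of 9 tested genes had groups apart, Apoe, and 7 had positive and 2 negative log2 fold changes. Csf1r was at 0, 4.76, 2.77 and 0 CPM and Fcgr1 at 0, 2.29, 0.866 and 0 CPM, and the part of these cells in the Hk3 result was not tested. In the neutrophil and mast cell list 5 of 6 genes were at 0 throughout, S100a8, S100a9, Csf3r, Mpo and Mcpt1, and Cpa3 was at 1.32, 1.00, 0 and 0 CPM. Cpa3, a mast cell protease, was like Hk3 higher in both control libraries, on only 40 and 21 counts there. Between the control libraries Cpa3 and Hk3 ran in opposite directions, and the part of Cpa3 in the Hk3 result was not tested.

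Gpi1, which turns glucose 6-phosphate into fructose 6-phosphate, was at 153, 119, 179 and 113 CPM, with the high-fiber libraries on either side of the control libraries. Phosphofructokinase, the main control point of the pathway, is built from liver (Pfkl), muscle (Pfkm) and platelet (Pfkp) subunits. Pfkp and Pfkl shared the step on the control diet, with 45.4% and 43.3% of the summed RPKM, and did not differ beyond their spread. With RefSeq transcript length Pfkp led in every library, at 61.7% on the control diet. Pfkp was at 182, 212, 257 and 196 CPM and Pfkl at 80.9, 108, 143 and 75.0 CPM, with overlapping groups for each. Pfkm was the lesser subunit at 9.20, 15.9, 8.63 and 2.36 CPM, where both high-fiber libraries were lower and library 2 lowest, with a log2 fold change of -1.05 ± 0.73 (SE, edgeR adjusted p = 0.764). That fold change was -0.50 without high-fiber library 2, -0.66 without control library 2 and -2.34 without high-fiber library 1. Its share of the step was 9.69% and 13.0% on control and 5.98% and 2.66% on high fiber, and the exact two-sided permutation p was 0.333, the smallest that 2 mice against 2 allow.

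The bifunctional enzymes PFKFB3 and PFKFB4 set the level of fructose 2,6-bisphosphate, an activator of phosphofructokinase. Pfkfb3 was at 3.68, 9.39, 13.3 and 6.63 CPM, with overlapping groups. Pfkfb4 was at 0.364, 4.19, 2.88 and 0 CPM, so the 2 diets each held a low library. Counting all 4 family genes, Pfkfb1 and Pfkfb2 together held more of the RPKM than Pfkfb3 in every library, and Pfkfb3 held 23.3%, 28.9%, 32.3% and 29.4%.

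Aldolase splits fructose 1,6-bisphosphate. Aldoa held 99.3% to 99.6% of the summed RPKM of Aldoa and Aldoc in the 4 libraries. Aldoa was at 1651 and 1559.7 CPM on control and 2036 and 1682 CPM on high fiber, with high-fiber library 2 just above the higher control library. Its log2 fold change was 0.21 ± 0.21 (SE), at an edgeR adjusted p of 0.852, and was 0.093 without high-fiber library 1 and 0.34 without high-fiber library 2. Tpi1, which interconverts the triose phosphates, was at 84.4, 87.1, 129 and 92.9 CPM, again with groups apart and high-fiber library 1 well above the rest (log2 fold change 0.38 ± 0.27, SE, edgeR adjusted p = 0.769). For Tpi1 the fold change was 0.14 without high-fiber library 1 and 0.58 without high-fiber library 2.

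Gapdh, which makes NADH and 1,3-bisphosphoglycerate, was at 28.9, 31.6, 51.5 and 27.7 CPM, where high-fiber library 1 alone was high. Pgk1, the first ATP-making enzyme, was at 8.15, 9.82, 9.87 and 10.2 CPM, and Pgam1, a mutase, at 3.68, 3.05, 2.46 and 2.36 CPM. Those 2 genes had groups apart in opposite directions by small steps. Eno1, which makes phosphoenolpyruvate, was at 283, 327, 361 and 299.6 CPM, with overlapping groups. Against Eno3, the muscle enolase, Eno1 held 90.9%, 94.4%, 94.8% and 96.9% of the RPKM of the 3 enolase genes.

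Pyruvate kinase, the last ATP-making step, is Pkm in these cells, as Pklr had no count. Pkm was at 678, 486, 953 and 439 CPM, so the high-fiber libraries were the highest and the lowest of the 4. Counts per gene do not separate its M1 and M2 splice forms. Ldha, which favours lactate formation, was at 2025, 1517, 2663 and 1865 CPM, with overlapping groups and a log2 fold change of 0.35 ± 0.27 (SE, edgeR adjusted p = 0.793). For Ldha it was 0.10 without high-fiber library 1, 0.16 without control library 2 and 0.58 without either of the other libraries. Ldhb, the form that favours pyruvate, was at 19.4, 27.2, 18.1 and 24.5 CPM, and Ldha held 96.4% to 98.6% of their summed RPKM.

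Most of the counted lactate transporter RNA came from Slc16a1, which is not among the 36. Slc16a3 (MCT4), the high-capacity exporter, was at 4.73, 1.91, 2.18 and 0 CPM, and its zero was in high-fiber library 2. DESeq2 called Slc16a3 lower without high-fiber library 1 (adjusted p = 0.0447). Slc16a1 (MCT1), which moves lactate and pyruvate either way, was at 72.5, 37.9, 103 and 64.0 CPM. It held 89.2%, 86.8%, 97.2% and 98.7% of the RPKM of 3 transporter genes. With RefSeq transcript length it held 71.6%, 62.7%, 93.1% and 93.9%, and Slc16a7 held 23.6% and 34.0% on control. Slc16a7 (MCT2), a high-affinity carrier, was at 13.0 and 11.2 CPM on control and 2.91 and 2.26 CPM on high fiber, and each high-fiber value was far below each control value. Slc16a7 had a log2 fold change of -2.22 ± 0.67 (SE), an unadjusted p of 0.0144 and an adjusted p of 0.447 in edgeR.

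**Figure D4:**
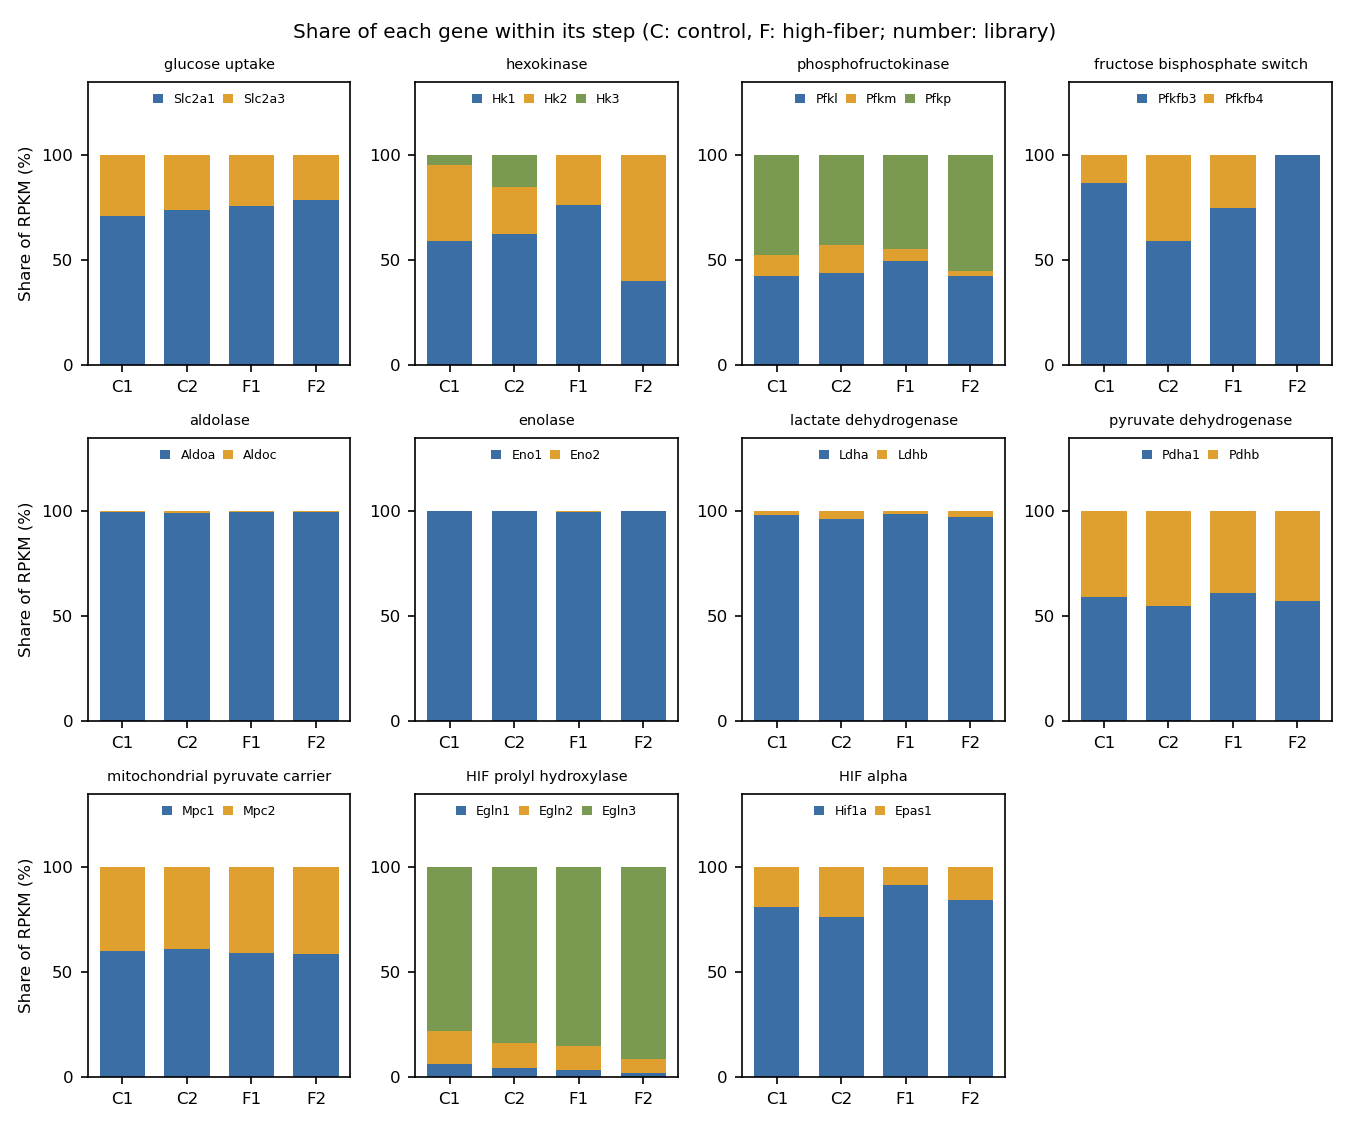
Share of each gene in the summed RPKM of its step, in percent, for 11 steps with 2 or 3 members, with 1 bar per library. The same gene leads in all 4 bars of 9 steps, the exceptions being hexokinase and phosphofructokinase.

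The same gene led in every library in 9 of 11 such steps, in 10 of 11 without a length correction and in all 11 with RefSeq transcript length. The leading gene itself differed with the length used for pyruvate dehydrogenase and the pyruvate carrier, whose genes encode subunits of 1 complex and are not alternatives. Of 25 shares tested, those without overlap gave an exact permutation p of 0.333, so no share could pass a threshold of 0.05.

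Pyruvate entry held 4 genes with positive and 1 with negative log2 fold changes. Pdk1, a kinase that shuts off pyruvate dehydrogenase, was the negative one, at 36.9, 32.9, 30.7 and 27.4 CPM, where the groups did not overlap but lay close (log2 fold change -0.26 ± 0.33, SE, edgeR adjusted p = 0.892, and -0.17 without control library 1). Pdk3 was the leading kinase of the family, with 53.2%, 65.3%, 72.8% and 73.8% of its RPKM, and Pdk1 held 18.4%, 14.1%, 13.2% and 9.56%. Pdha1 and Pdhb, the subunits of the dehydrogenase that act on pyruvate, were at 230.3, 214, 203 and 290.1 CPM and at 164, 182, 133 and 224 CPM. The carrier subunits Mpc1 and Mpc2 were at 45.6, 54.4, 44.3 and 61.1 CPM and at 106, 121, 108 and 153 CPM. High-fiber library 2 was highest and high-fiber library 1 lowest, or next to lowest, in each of these last 4 genes. The processed copy Mpc1-ps was itself counted at 16.1, 17.6, 17.4 and 25.3 CPM, and 26.4% of the 50-base words of Mpc1 stand in genes elsewhere.

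Within glycolysis the high-fiber libraries often stood at opposite ends. Among 22 tested genes from uptake to lactate export, high-fiber library 1 was highest in 12 (54.5%) and high-fiber library 2 lowest in 12 (54.5%), against 24.3% and 31.8% of all genes tested. The summed level of these genes was 5486 and 4760 CPM on control and 7113 and 4979 CPM on high fiber. High-fiber library 2 also stood apart over all genes, and the B and plasma cell marker sum was largest there, and the part of either in these values was not tested.

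The HIF block held the members, Hif1a and Egln3, that were higher at an unadjusted p under 0.05 in edgeR. Hif1a, the oxygen-regulated alpha subunit, was at 325 and 222 CPM on control and 838 and 431 CPM on high fiber. Both high-fiber libraries were above both control libraries, and high-fiber library 1 was far above the rest. Its mean was 634 ± 288 CPM against 273 ± 72.7 CPM (SD, n = 2), a fitted ratio of 2.32. Its log2 fold change was 1.21 ± 0.36 (SE), with an unadjusted p of 0.0139 and an adjusted p of 0.447 in edgeR. DESeq2 gave an adjusted p of 0.0452, which was lost without control library 1 (0.0589), control library 2 (0.631) or high-fiber library 1 (0.144) and was 2.92e-06 without high-fiber library 2. The edgeR log2 fold change was 0.68 without high-fiber library 1 and 1.61 without high-fiber library 2. Hif1a shares 5.60% of its exon bases with the opposite-strand gene Gm15283, and the counting's strand setting is not given in the sources used here. Opposite-strand overlap was larger for Mpc1 (23.1%), Bnip3 (22.3%), Pdha1 (16.1%) and Gpi1 (11.5%). Same-strand overlap was 15.3% for Pkm, 10.2% for Pfkm and 2.51% for Hif1a. The part of any overlap in these levels was not tested. Epas1, which encodes the HIF-2 alpha subunit, was at 72.5, 65.6, 73.2 and 74.9 CPM, with groups apart by under 1 CPM and a log2 fold change of 0.10 ± 0.25 (SE, edgeR adjusted p = 0.953). Hif1a held 80.9% and 76.2% of the summed RPKM of the 2 alpha genes on control and 91.6% and 84.5% on high fiber, at an exact permutation p of 0.333.

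**Figure D5:**
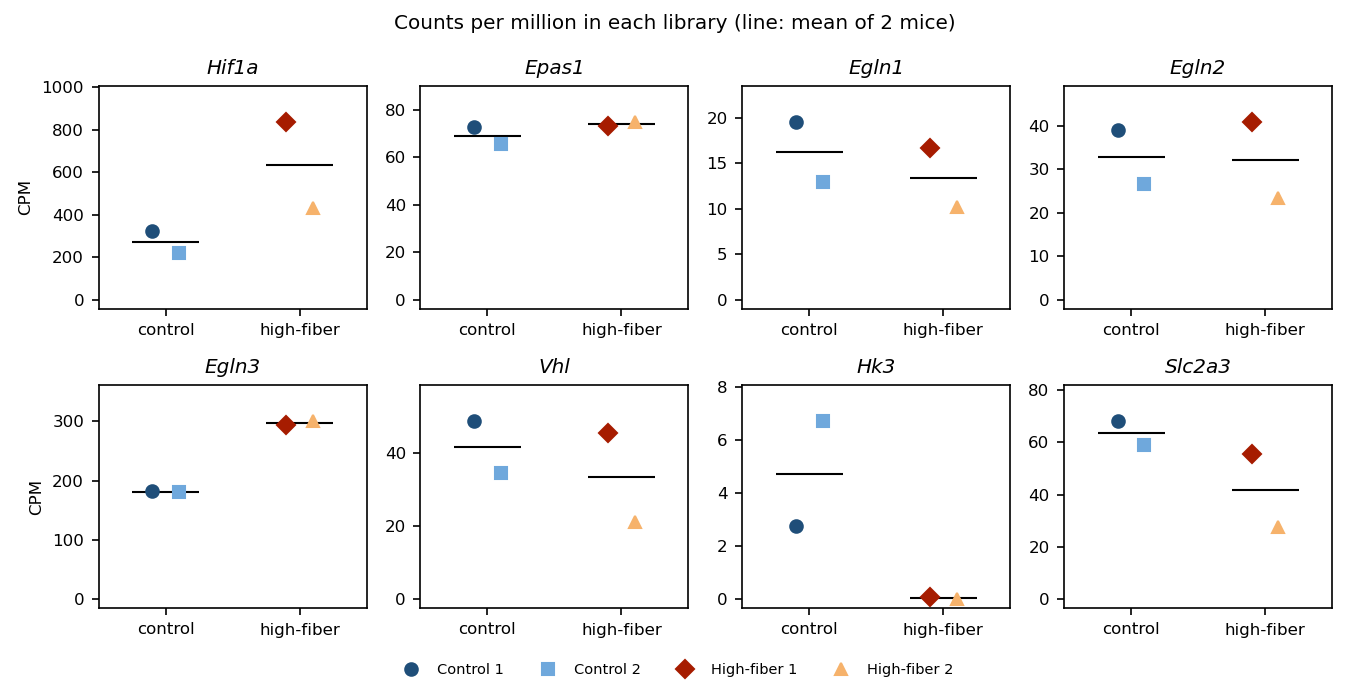
CPM of 8 genes in each library, with control libraries on the left and high-fiber libraries on the right of each panel and a line at each mean of 2 mice. Hif1a and Egln3 lie higher in both high-fiber libraries, Hk3 and Slc2a3 lower in both, and the groups overlap for Egln1, Egln2 and Vhl.

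Egln3, a prolyl hydroxylase that is itself a known HIF target, was at 182 and 180.5 CPM on control and 293 and 300.7 CPM on high fiber. The libraries lay close together within each diet, and the groups were well apart. Its mean was 297 ± 5.31 CPM against 181 ± 0.892 CPM (SD, n = 2). The log2 fold change of Egln3 was 0.71 ± 0.20 (SE), with an unadjusted p of 0.0112 and an adjusted p of 0.447 in edgeR, and DESeq2 gave an adjusted p of 0.0675. Leaving out any 1 library left the edgeR log2 fold change between 0.69 and 0.76. Egln3 led the hydroxylases, with 77.9% and 83.8% of their summed RPKM on control and 85.1% and 91.0% on high fiber, at an exact permutation p of 0.333. The marker sums of macrophages and dendritic cells and of B and plasma cells, given above, were also higher in both libraries of the high-fiber diet, and their part in the values of Hif1a and Egln3 was not tested. Egln1, the chief HIF hydroxylase in most tissues, was at 19.6, 13.0, 16.7 and 10.2 CPM, and Egln2 at 39.0, 26.7, 40.9 and 23.3 CPM, with overlapping groups for both.

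The other HIF regulators had overlapping groups. Hif1an was at 69.2, 65.0, 81.8 and 54.1 CPM. Vhl, which encodes the substrate-binding part of the ubiquitin ligase, was at 48.7, 34.6, 45.6 and 21.0 CPM, and its log2 fold change of -0.31 ± 0.44 (SE, edgeR adjusted p = 0.910) became 0.11 without high-fiber library 2. Bnip3, a HIF target that acts in mitophagy, was at 10.4, 6.34, 8.52 and 9.37 CPM.

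Around these genes, lists of related pathways were counted, and edgeR called 0 genes in each at an adjusted p of 0.05, as did DESeq2 with all 4 libraries. The cell type, cell cycle and immediate early lists are not among these. Of 15 tested HIF targets outside the member list, 7 were on the positive side and 8 on the negative side of 0. Their median log2 fold change was -0.01. At an unadjusted p under 0.05 in edgeR 2 were higher, Ndrg1 and Mxi1, where 4.70% of all genes were. Ndrg1, a stress-response gene, was at 0.331 and 3.62 CPM on control and 18.3 and 7.56 CPM on high fiber, and the groups did not overlap (log2 fold change 2.98 ± 0.99, SE, edgeR adjusted p = 0.458). For Ndrg1 the edgeR log2 fold change was 1.88 without control library 1 and 5.31 without control library 2, and DESeq2 called it without control library 2 alone (adjusted p = 0.00448). Mxi1, a MYC antagonist, was at 82.1, 50.6, 120.4 and 116 CPM, also with groups apart (0.82 ± 0.30, SE, edgeR adjusted p = 0.499, and 0.52 without control library 2). The most abundant of these targets, Bhlhe40, a transcriptional repressor, was at 4201, 2619, 4175 and 2810 CPM, with overlapping groups, and Vegfa, the angiogenic factor, was at 25.3, 17.4, 18.2 and 3.04 CPM. Of 7 tested HIF partners 5 were positive, with a median of 0.23 and 0 at an unadjusted p under 0.05, and Arnt, the partner of Hif1a, was at 58.2, 44.3, 65.4 and 53.7 CPM. Cul2, the scaffold of the VHL ligase and the most abundant of this list by mean control CPM, was at 213, 144, 177 and 122 CPM, with overlapping groups.

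Of 9 tested genes that control glycolysis, 4 were positive and 5 negative. At an unadjusted p under 0.05 in edgeR 2 were lower, where 4.10% of all genes were. Myc, which activates glycolytic genes in proliferating cells, was at 533 and 543 CPM on control and 385 and 350.3 CPM on high fiber (log2 fold change -0.55 ± 0.20, SE, edgeR adjusted p = 0.499). Adpgk, an ADP-dependent glucokinase, was at 139, 136, 97.1 and 85.9 CPM (-0.59 ± 0.23, SE, edgeR adjusted p = 0.534). Both genes had groups that did not overlap. The summed level of 11 immediate early genes, which answer stimulation and cell handling, was 40393 and 34893 CPM on control and 22990 and 17611 CPM on high fiber, and its part in the lower Myc was not tested. Of these 11, DESeq2 called 7 lower, against 0.613% of all genes with an adjusted p, and edgeR called 0. In the cell cycle list DESeq2 called 1 gene higher, Ccnb2, against 1.23% of all genes with an adjusted p. Of 7 pentose phosphate genes 5 were positive, 0 passed an unadjusted p of 0.05 in edgeR, and the most abundant, Taldo1 (transaldolase), was at 405, 486, 488 and 437 CPM. Of 11 tested further isoforms 4 were positive and 7 negative, with 11 of the 25 listed at 0 counts in all libraries. Of 7 tested further genes of pyruvate entry 5 were positive, with 0 at an unadjusted p under 0.05 in edgeR, and the most abundant, Bsg, a chaperone of monocarboxylate transporters, was at 347, 433, 406 and 419 CPM. Of 16 tricarboxylic acid cycle genes 10 were positive, and Sdhb, a subunit of succinate dehydrogenase, was the 1 gene at an unadjusted p under 0.05, at 213, 229.9, 291 and 402 CPM (log2 fold change 0.64 ± 0.24, SE, edgeR adjusted p = 0.509). For Sdhb it was 0.39 without high-fiber library 2, and DESeq2 called it without high-fiber library 1 (adjusted p = 0.0126). Mdh2, the mitochondrial malate dehydrogenase and the most abundant of that list, was at 714, 776, 879 and 1166 CPM, with groups apart (0.46 ± 0.23, SE, edgeR adjusted p = 0.654).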

How the data were processed

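RNA counts from ILC2s of 4 mice were analysed, 2 per diet, each library from its own mouse per the series' design text. The authors deposited whole-number read counts per NCBI gene identifier, not normalized, and 0 value columns lacked a sample. The kit was a SMARTer low-input kit for total RNA, per the labels' protocols. The submitters' processing notes name CASAVA 1.8.2, STAR 2.3.0 and mm10 without roles. For the counter, its annotation and its strand setting, a statement is not given in the sources used here.

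Symbols for 25275 of 27179 identifiers came from RefSeq GRCm38.p6. Exon lengths and shared words (50 or 100 bases) came from GENCODE M21 on GRCm38, whose primary chromosomes are those of mm10. In R 4.3.3, edgeR 4.0.16 was run on the deposited counts: filterByExpr (11841 of 15425 genes with a count), TMM, a model of diet alone, glmQLFit with legacy=FALSE (legacy=TRUE is the default of this version) and Benjamini-Hochberg adjustment over all genes at 0.05. Variation between mice, as edgeR's common coefficient, was 0.607 on 2 residual degrees of freedom. With 2 mice against 2, the smallest exact two-sided permutation p is 0.333.

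The members and lists were chosen with earlier results of these data known. Every member was to be named, along with other pathway genes at an unadjusted p under 0.05 or most abundant in their list by mean control CPM; Slc2a8, Pdk3, Eno3, Vegfa and Arnt were named after their values were seen. Alternatives were other scaling, filters of every gene with a count or 5 CPM in at least 2 libraries, other gene lengths, a replicate block, robust or legacy=TRUE fitting in edgeR, limma-voom with limma 3.58.1, DESeq2 1.42.0, and each library left out. DESeq2 without each library was added after seeing the data. The fit was tested on simulated data.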

Additional observations from a re-analysis of the deposited data

How the results depend on the processing

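The count of genes called, 4 in edgeR, was 0 with every counted gene kept, 9 with the filter of 5 CPM, 0 with limma-voom, 0 with legacy=TRUE and 234 with DESeq2, and 0 to 1 in edgeR with a library left out. DESeq2 called 144 without control library 1, 109 without control library 2, 755 without high-fiber library 1 and 189 without high-fiber library 2. The replicate block called 0 genes and 0 members. The titles do not say whether a number shared between diets pairs the mice. The correlation of deviations of same-numbered libraries was 0.04, and with only 2 pairs it cannot decide this. Totals were 30406730 and 29263068 counts in the libraries numbered 1, and 20253987 and 20750263 in those numbered 2. Depth thus went with the number, and the reason was not tested. Members called were 0 in edgeR and limma-voom under each alternative, 2 in DESeq2, and 0 to 3 in DESeq2 with a library left out, namely Hk1, Slc16a3 and Hk3 without high-fiber library 1 and Hif1a without high-fiber library 2. Members at an unadjusted p under 0.05 numbered 3 in edgeR, 1 to 4 with a library left out, and 1 to 8 in DESeq2 with a library left out. Among the 26 log2 fold changes followed, signs turned only when a library was left out. In edgeR with each library left out, values ran from -0.68 to 0.054 for Slc2a1, from -0.98 to 0.11 for Vhl and from -1.33 to 0.63 for Hk1, each highest without high-fiber library 2. They ran from -0.38 to 0.70 for Pkm and from -0.096 to 0.77 for Gapdh, each lowest without high-fiber library 1, and from -0.22 to 0.49 for Bnip3, lowest without control library 2 and -0.022 without high-fiber library 2. Hk1 was also at 0.13 without control library 1. DESeq2 turned the same signs, except that Bnip3 was at 0.031 without high-fiber library 2, at 0.063 for Slc2a1, 0.64 for Hk1 and 0.13 for Vhl without high-fiber library 2, -0.37 for Pkm and -0.094 for Gapdh without high-fiber library 1, 0.12 for Hk1 without control library 1 and -0.20 for Bnip3 without control library 2. The cause was not tested. Genes of few counts, such as Pfkfb4, Slc16a3 and Hk3, are limited by depth as well as by 2 mice per diet.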
